A study of Mus musculus with 6 samples.

Results

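Complex I (NADH:ubiquinone oxidoreductase) is the first and largest enzyme of the mitochondrial respiratory chain. Its genes were examined here in LPS-stimulated BV2 cells with and without PGC-1α overexpression. The members were the probes whose accession led to a RefSeq mouse gene with an Nduf symbol of the a, b, c, s, v, ab or af series. Of 54 RefSeq genes with such a symbol, 46 were on the arrays, out of 23462 genes matched to a probe. They comprised 38 genes with subunit symbols and 8 Ndufaf assembly factors. The other 8 genes had no probe: 5 were pseudogenes, and 3, Ndufb1, Ndufb4b and Ndufb4c, were protein coding.

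BV2 is an immortalised mouse microglial cell line. The control group (3 arrays) was LPS-treated BV2 cells without PGC-1α overexpression, and the overexpression group (3 arrays) was LPS-treated BV2 cells with it. PGC-1α had been introduced by a lentivirus with a ubiquitin promoter, a FLAG tag and a puromycin marker, and the controls carried a negative control virus per the paper's methods. LPS, the bacterial endotoxin, was given at 500 ng/ml for 6 h, and no array held unstimulated cells. Total RNA was hybridised to 1-colour Agilent arrays, 2 of each group on one slide and 1 of each group on another. The labels do not say whether the 3 arrays of a group came from separate cultures, so p-values measure only the spread between these arrays, which may be technical.

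Complex I takes electrons from NADH, passes them through a flavin and a chain of iron-sulphur clusters to ubiquinone, and uses the energy to pump protons across the inner membrane. It is L-shaped. A matrix arm carries the redox centres, and a membrane arm, whose central subunits are encoded in mitochondrial DNA, carries the pump. Around the conserved core sit many accessory subunits encoded in the nucleus, and assembly factors build the enzyme without remaining in it. PGC-1α is a transcriptional coactivator known for raising nuclear genes of oxidative phosphorylation through nuclear respiratory factors and estrogen-related receptors.

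The arrays differed in brightness with the group. The 75th percentile of intensity was 1617, 1627 and 1893 for the controls, and it was dimmer with overexpression, at 1157, 856 and 1268. Ppargc1a, the gene of PGC-1α, had 2 probes, each well above background on only 1 or 2 arrays of a group. Their means were 1.14 and 0.26 log2 units higher in the overexpression group, and where they lie relative to the introduced fragment is not given in the sources used here. Of 9 microglia and macrophage markers, 8 were well above background on all 6 arrays and Cx3cr1 on none. Itgam, Tyrobp, Csf1r, Trem2 and Cd68 passed as higher under the 75th percentile scaling used below (limma), at 0.75, 0.74, 0.67, 0.52 and 0.46. Aif1, Ptprc and Spi1, at -0.005, -0.33 and 0.17, did not pass. Under quantile normalization none of these passed. Of 3 homeostatic microglia genes, P2ry12 and Sall1 were above background on none, while Tmem119 was above it on all 6. Under the 75th percentile Tmem119 fell by 2.68 on the log2 scale (limma, adjusted p 4.4e-05), and under quantile normalization it was at -2.71 (adjusted p 7.4e-05). Of 9 markers of astrocytes, neurons and oligodendrocytes, 6 were well above background on all 6 arrays and Syt1 on none. Of the 7 tested, 3 passed as higher with overexpression under the 75th percentile scaling used below (limma): Aqp4 at 0.87 (adjusted p 0.0024), Snap25 at 0.71 (adjusted p 0.0074) and Rbfox3 at 1.14 (adjusted p 0.014). Under quantile normalization Aqp4 and Rbfox3 passed, at 0.85 and 0.84, and Snap25, at 0.11, did not. The summed level of the 7, most of it from Snap25, was 23.2 to 29.0 times the array's 75th percentile in controls and 36.7 to 50.04 times with overexpression, and its part in the results was not tested.

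Levels are given as log2 intensity after subtraction of the array's 75th percentile, so that 0 is that percentile, and fold changes as overexpression minus control. Of the 46 genes, 44 could be tested: 36 with subunit symbols and all 8 assembly factors. The probes of Ndufs4, an accessory subunit of the matrix arm, and of Ndufa4 were marked as outlier spots on too many arrays. Each of the 44 was well above background on every array where it had a value, and 7 of the subunits lacked a value on some array.

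The subunits were higher in the overexpression group when arrays were scaled to their 75th percentile, and this did not hold when the arrays were quantile normalized. Under the 75th percentile, 27 of 36 subunits passed as higher and 0 as lower (limma, adjusted p under 0.05), against 36.9% and 19.6% of all 17062 genes tested. Their median log2 fold change was 0.48, a fold of 1.39, beside a median of 0.23 over all genes. Under quantile normalization 2 of 36 passed as higher and 0 as lower, against 21.7% and 20.9% of all genes, and the median was 0.03 for the subunits and 0.03 for all genes. At an unadjusted p under 0.05 in limma, 0 subunits were lower under the 75th percentile and 1 under quantile normalization, Ndufv2. The assembly factors did not move as a block under either scaling: 2 of 8 passed as higher and 1 as lower under the 75th percentile, and 0 and 2 under quantile normalization. Calls held under both scalings for 3 genes: Ndufab1 and Ndufa4l2, which were higher, and Ndufaf1, which was lower.

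**Figure D1:**
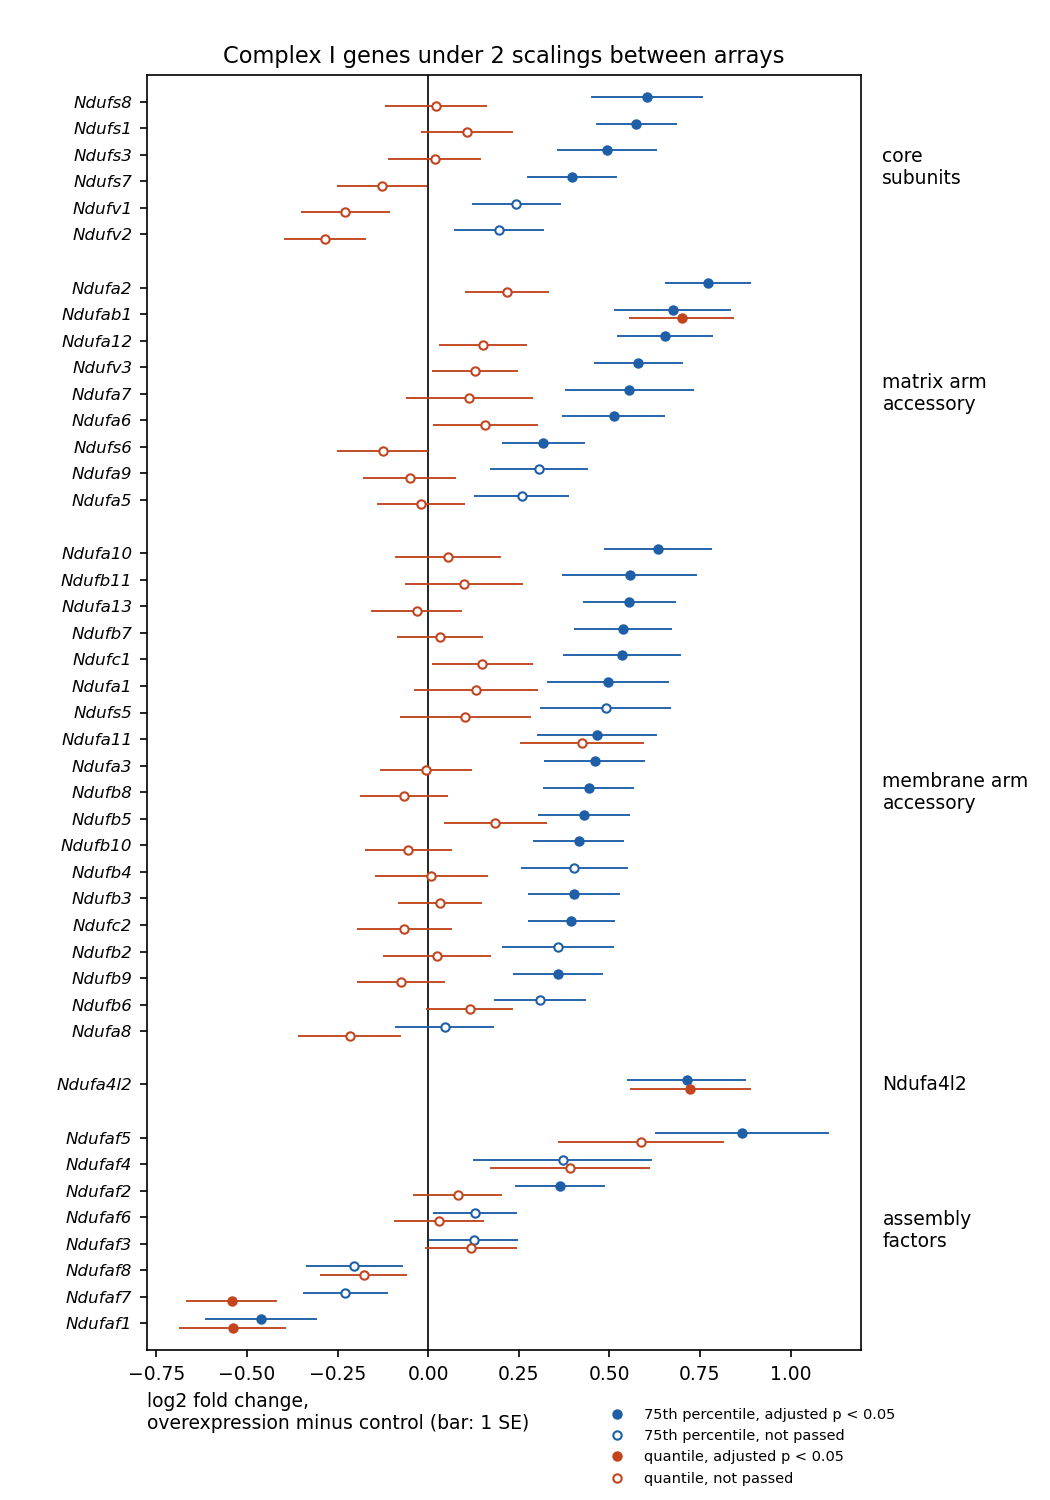
Log2 fold change (overexpression minus control, n = 3 arrays per group, fewer for the 7 subunits lacking a value) of the tested complex I genes named on the axis, with 1 SE, under the 75th percentile scaling (blue) and quantile normalization (red). Filled points passed an adjusted p of 0.05; the blue subunit points lie between 0.05 and 0.77, the red ones between -0.28 and 0.72.

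The difference between the scalings went along with brightness. Of the 36 tested subunits, 28 lay in the brightest 10% of tested genes, and none of the 8 assembly factors did. All 1707 genes of that brightest class had a median log2 fold change of 0.52 under the 75th percentile, and 71.2% of them passed as higher and 0.176% as lower. The 28 subunits among them had a median of 0.49, with 22 passing as higher. Under quantile normalization the medians were 0.01 for the whole class and 0.02 for its subunits. The 8 subunits outside it had a median of 0.45 under the 75th percentile and 0.17 under quantile normalization, with 5 and 2 passing as higher. Which scaling is closer to the amount of RNA per cell was not tested.

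**Figure D2:**
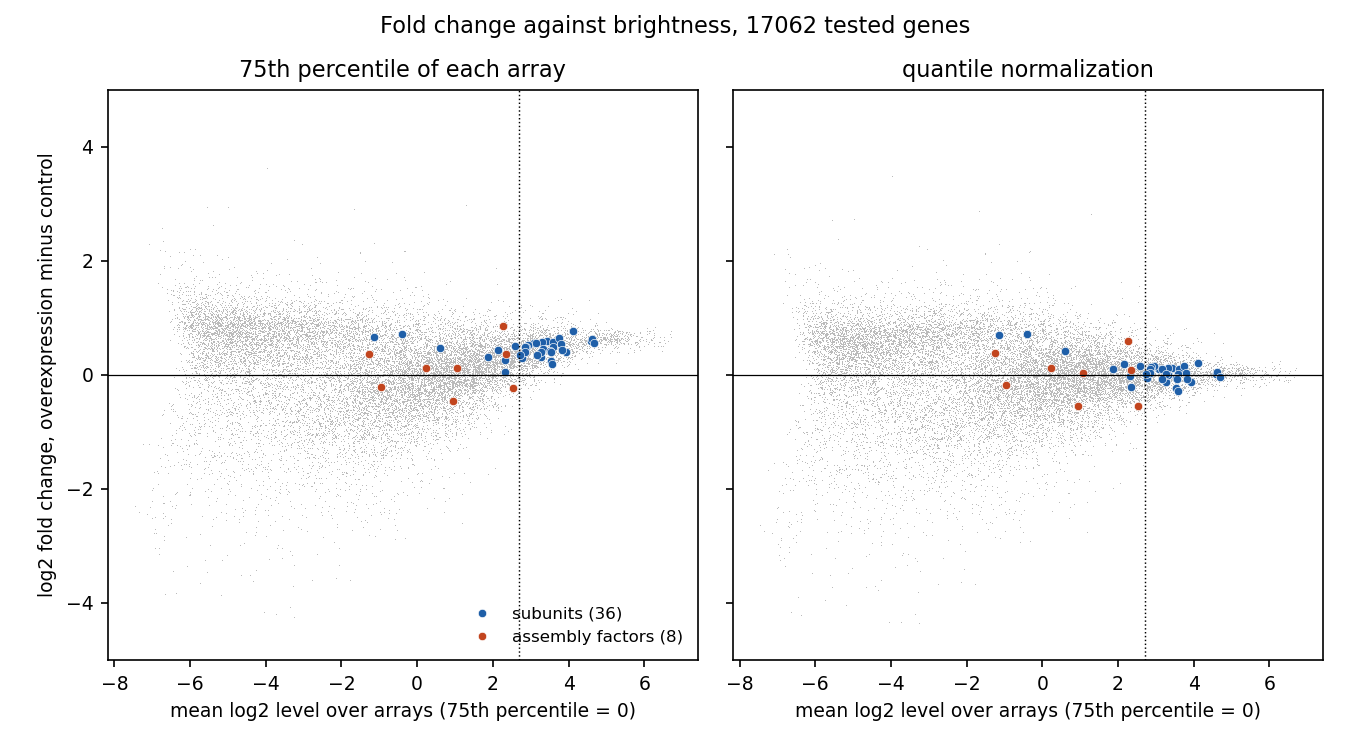
Log2 fold change (overexpression minus control) against mean log2 level over the arrays for the 17062 tested genes (grey), the 36 subunits (blue) and the 8 assembly factors (red), under the 75th percentile scaling (left) and quantile normalization (right). The dotted line marks the lower edge of the brightest 10%, whose median fold change is 0.52 on the left and 0.01 on the right and which holds 28 of the 36 subunits.

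The 29 subunits with a value on every array were also compared array by array. Their median level relative to each gene's own mean, and to the same median over all genes, came to -0.14, -0.17 and -0.08 for controls and to 0.08, 0.18 and 0.11 for overexpression under the 75th percentile. All control arrays were thus below all overexpression arrays. Under quantile normalization the values were 0.04, 0.00 and 0.01 against 0.01, -0.03 and -0.01, and the groups overlapped. In 29 of 29 genes every overexpression array was above every control array under the 75th percentile, a pattern shown by 42.6% of all genes, and in 0 the reverse, against 22.9%. Under quantile normalization 4 of 29 were separated in that direction and 2 in the other, against 28.8% and 26.4% of all genes.

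**Figure D3:**
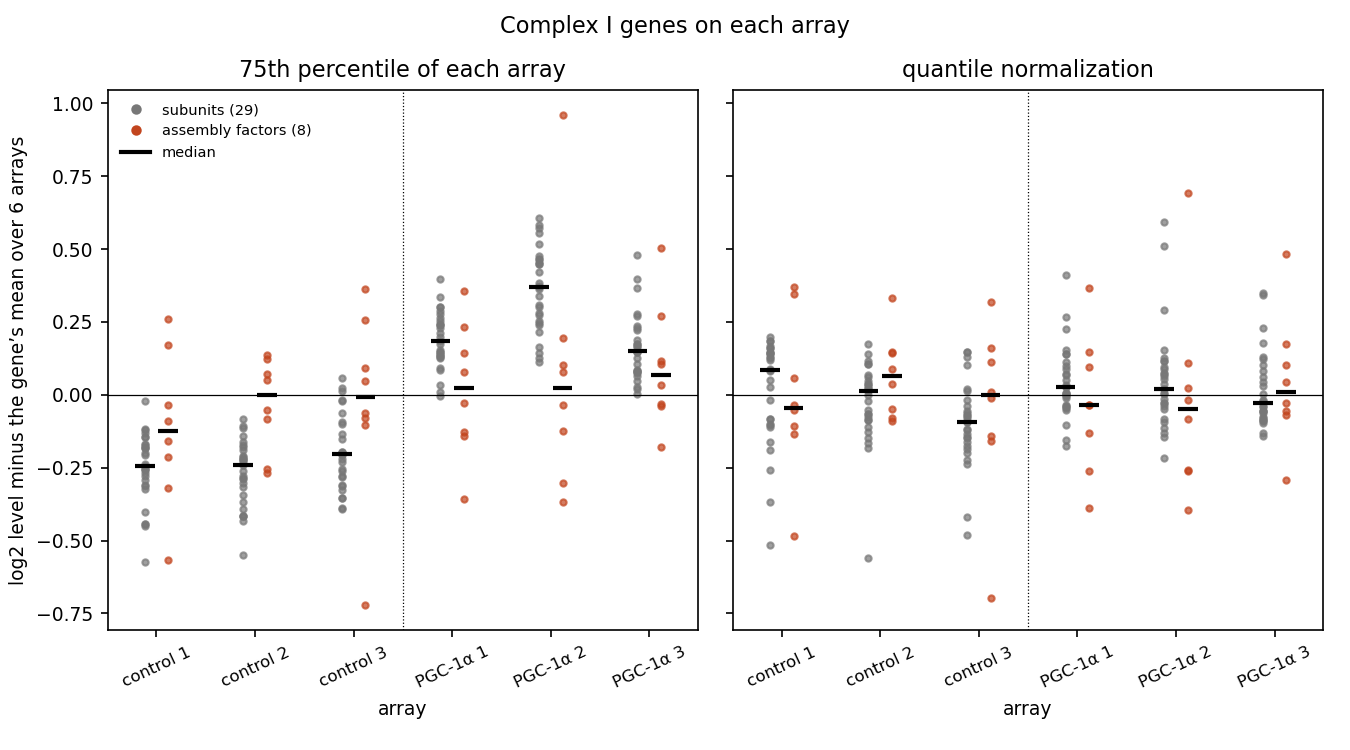
Log2 level of each complex I gene minus that gene's mean over the 6 arrays, per array, for the 29 subunits (grey) and 8 assembly factors (red) with a value on every array; black bars are medians. Under the 75th percentile (left) the subunit medians are below 0 on the 3 control arrays and above 0 on the 3 PGC-1α arrays; under quantile normalization (right) they lie near 0 on all 6.

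Slides and single arrays bore on the count under the 75th percentile. With slide as a block 29 subunits passed as higher. On slide 1 alone, with 2 arrays against 2, 17 of the 32 testable subunits passed as higher, with a median of 0.52. Of all genes there, 5569 of 16667 passed as higher, with a median of 0.24. In the brightest class, where most subunits lay, 926 of 1596 did, with a median of 0.55. On slide 2, with 1 array against 1 and so no test, 34 of 34 subunits were higher, with a median of 0.36. So were 10602 of all 16978 genes, with a median of 0.19, and 1595 of 1676 in the brightest class, with a median of 0.42. Without control replicate 1 the count was 13 of 37 tested, and without control replicate 2 it was 12 of 34. It lay between 18 and 22, of 33 or 34 tested, when one of the other arrays was left out. Precision falls for every gene when an array is left out, and the share of all genes passing in these fits is not given here. Whether the lower counts are particular to the subunits was therefore not tested.

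The 7 core subunits carry the redox chain and are conserved down to bacteria. Under the 75th percentile 5 of the 7 passed as higher, with a median log2 fold change of 0.49, and under quantile normalization none did in either direction, with a median of 0.02 and 1 lower at an unadjusted p under 0.05 in limma. All 7 core subunits lay in the brightest class of tested genes. Of all genes in that class, 71.2% passed as higher under the 75th percentile, with a median of 0.52. Ndufs8, which binds iron-sulphur clusters next to the membrane, had levels of 4.33, 4.31 and 4.24 in controls and 4.72, 5.20 and 4.77 with overexpression. Its groups did not overlap, with a log2 fold change of 0.60 (SE 0.16, adjusted p 0.012). Under quantile normalization its log2 fold change was 0.02 (SE 0.14, adjusted p 0.92).

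Ndufs1, the large iron-sulphur subunit of the NADH module, had levels of 3.27, 3.34 and 3.32 in controls and 3.90, 3.88 and 3.88 with overexpression. The groups were 3.31 ± 0.03 and 3.89 ± 0.01 (SD, n = 3), without overlap, and the log2 fold change was 0.57 (SE 0.11, adjusted p 0.0039). Under quantile normalization its log2 fold change was 0.11 (SE 0.13, adjusted p 0.53). Ndufs3, a scaffold of the matrix arm, rose from 3.34 ± 0.09 to 3.83 ± 0.19 (SD, n = 3), and Ndufs7, which holds the last cluster before ubiquinone, from 3.72 ± 0.02 to 4.12 ± 0.15. Their log2 fold changes were 0.49 and 0.40 under the 75th percentile. Under quantile normalization they were 0.02 and -0.13, and neither passed.

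The flavoprotein pair was the lowest of the core. Ndufv1, which binds NADH and the flavin, had levels of 3.41, 3.42 and 3.40 in controls and 3.54, 3.80 and 3.61 with overexpression. Ndufv2, its iron-sulphur partner, had levels of 3.44, 3.43 and 3.55 against 3.61, 3.81 and 3.59. The groups did not overlap in either gene, but the log2 fold changes of 0.24 and 0.20 were close to the shift of 0.23 over all genes, and neither passed (adjusted p 0.12 and 0.21). Both genes lay in the brightest 10%, and both values were below the median of that class, 0.52. The sign turned under quantile normalization, with log2 fold changes of -0.23 (SE 0.12, adjusted p 0.17) for Ndufv1 and -0.28 (SE 0.11, adjusted p 0.073) for Ndufv2. For Ndufv1 this held for the brighter probe only, and the dimmer one stayed positive, at 0.05 (SE 0.13). In the authors' own normalized values Ndufv2 passed as lower, at -0.30 (SE 0.09, adjusted p 0.033), where 2 subunits passed as higher and 1 as lower against 23.2% and 22.4% of all genes.

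Of the 9 accessory subunits of the matrix arm that were tested, 7 passed as higher under the 75th percentile, with a median of 0.56, and 1 under quantile normalization, with a median of 0.13. In the brightest 10% of genes, where 71.2% passed as higher under the 75th percentile, lay 6 of the 9. Ndufa2, a small subunit with a thioredoxin-like fold, had the largest log2 fold change of all subunits under the 75th percentile. Its levels were 3.67, 3.72 and 3.78 in controls and 4.40, 4.59 and 4.50 with overexpression, a log2 fold change of 0.77 (SE 0.12, adjusted p 0.0016). The groups stayed apart under quantile normalization, but at 0.22 (SE 0.12) the difference did not pass (adjusted p 0.16). Ndufa12, which is added late and takes the place held by Ndufaf2 during assembly, rose by 0.65 under the 75th percentile and differed by 0.15 under quantile normalization, where it did not pass. The lowest of this arm were Ndufa5 at 0.26, Ndufa9, which holds a bound NADPH, at 0.31 and Ndufs6, a zinc-binding subunit, at 0.32. Of these only Ndufs6 passed, and under quantile normalization all 3 were negative, at -0.02, -0.05 and -0.13, without passing.

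Ndufab1, the mitochondrial acyl carrier protein, passed in every setting tried. It also serves fatty acid synthesis and iron-sulphur cluster assembly in the matrix. Its levels were -1.58, -1.68 and -1.15 in controls and -0.73, -0.88 and -0.77 with overexpression. The overexpression arrays were all above the controls, and control replicate 3 was the nearest to them. The log2 fold change was 0.67 (SE 0.16, adjusted p 0.0090), and 0.70 (SE 0.14, adjusted p 0.0062) under quantile normalization. It passed under 20 of 20 other settings, with values between 0.56 and 0.83.

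Of 19 accessory subunits of the membrane arm, 14 passed as higher under the 75th percentile, with a median of 0.44, and none under quantile normalization, with a median of 0.03. In the brightest class of tested genes lay 15 of the 19. Of all genes in that class, 71.2% passed as higher under the 75th percentile, with a median of 0.52. Ndufa10, which has the fold of a nucleoside kinase, was the highest of the 19. Its levels were 4.36, 4.31 and 4.22 against 4.85, 5.20 and 4.74. Its groups did not overlap and its log2 fold change was 0.63 (SE 0.15, adjusted p 0.0084), but 0.05 (SE 0.15, adjusted p 0.79) under quantile normalization. The other 13 that passed had log2 fold changes between 0.36 and 0.56, among them Ndufa13, also known as GRIM-19, at 0.56. The lowest were Ndufa8, a subunit on the intermembrane side, at 0.05 from 2 control and 3 overexpression arrays, which overlapped, and Ndufb6 at 0.31, and neither passed. Ndufa8 was at -0.22 (SE 0.14, adjusted p 0.26) under quantile normalization. Ndufa11, which sits at the contact with complex III in supercomplexes, kept most of its difference, at 0.47 under the 75th percentile and 0.42 (SE 0.17) under quantile normalization, where its adjusted p was 0.076.

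Ndufa4 and Ndufa4l2 carry complex I names only by history. Ndufa4 is now counted as a subunit of complex IV. Its probe had levels of 3.39 and 3.65 on the control arrays with a value and 3.80 and 4.09 on the overexpression arrays with a value, and it was not tested. Ndufa4l2, its hypoxia-inducible relative, had levels of -0.97, -0.50 and -0.78 in controls and -0.13, 0.18 and -0.16 with overexpression. All overexpression arrays were above all controls. The log2 fold change was 0.71 (SE 0.16, adjusted p 0.0077), and 0.72 (SE 0.17, adjusted p 0.010) under quantile normalization. It passed under 20 of 20 other settings, with values between 0.54 and 0.86. Without Ndufa4l2 the subunits passing as higher were 26 of 35 under the 75th percentile and 1 of 35 under quantile normalization.

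The 8 assembly factors had log2 fold changes between -0.46 and 0.87 under the 75th percentile, with a median of 0.13, and between -0.54 and 0.59 under quantile normalization, with a median of 0.06. Ndufaf1 belongs to the membrane-bound complex that builds part of the membrane arm. Its levels were 1.21, 1.03 and 1.32 in controls and 0.60, 0.59 and 0.99 with overexpression. The highest overexpression array, replicate 3, was just below the lowest control. The log2 fold change was -0.46 (SE 0.16, adjusted p 0.034), and -0.54 (SE 0.15, adjusted p 0.019) under quantile normalization. The call did not hold when control replicate 1 or 3, or overexpression replicate 1 or 2, was left out, with adjusted p between 0.084 and 0.12. Nor did the call hold with no filter on dim probes (adjusted p 0.068), or with each array's median over tested genes as zero, at -0.31 (adjusted p 0.10). It held under 14 of 20 other settings.

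Ndufaf5 and Ndufaf7 are both methyltransferase-like proteins that modify an arginine of a core subunit, and they lay on opposite sides of 0. Ndufaf5 had levels of 1.94, 2.01 and 1.54 in controls and 2.50, 3.22 and 2.37 with overexpression, without overlap and with replicate 2 far above the others. Its log2 fold change was 0.87 (SE 0.24, adjusted p 0.016), and 0.59 (SE 0.23, adjusted p 0.069) under quantile normalization. Without control replicate 3 it was 0.72 (adjusted p 0.060), and its second, dimmer probe was at 0.33 (SE 0.13). Ndufaf7 had levels of 2.70, 2.65 and 2.57 against 2.40, 2.49 and 2.35. All its overexpression arrays were below all controls, and the log2 fold change of -0.23 (SE 0.12, adjusted p 0.13) became -0.54 (SE 0.12, adjusted p 0.0097) under quantile normalization. Its second probe was at -0.08 and -0.36 and passed under neither.

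Among the rest, Ndufaf2 passed as higher under the 75th percentile, at 0.36 (SE 0.12, adjusted p 0.036), and was at 0.08 (SE 0.12, adjusted p 0.62) under quantile normalization. It did not pass when any array but control replicate 3 was left out, with adjusted p between 0.056 and 0.12. Ndufaf3 and Ndufaf4, which act together early in the assembly of the ubiquinone module, were at 0.13 (SE 0.12) and 0.37 (SE 0.25) under the 75th percentile. Ndufaf6 was at 0.13 (SE 0.12), and Ndufaf8, a partner of Ndufaf5, at -0.20 (SE 0.13). None of these 4 passed under either scaling.

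For Ndufab1, Ndufa4l2 and Ndufaf1, the genes called under both scalings, an exact two-sided permutation test over the 6 arrays gave p = 0.1 each, the smallest that 3 arrays against 3 allow. Any gene whose groups do not overlap gives this value, as in these 3, so the test adds no support. Under the 75th percentile 42.6% of all genes were separated upward in this way and 22.9% downward.

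**Figure D4:**
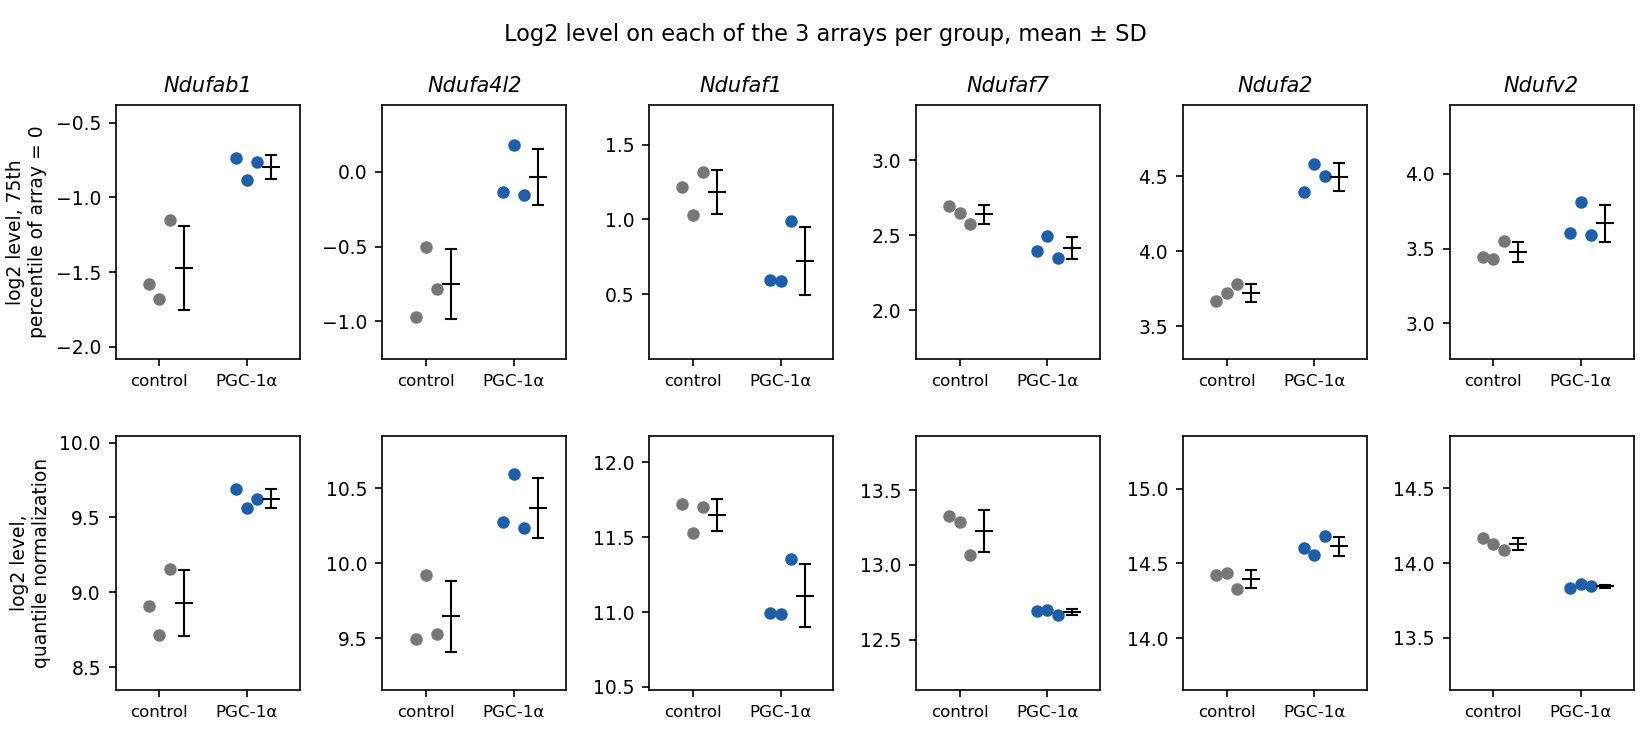
Log2 level on each array (3 control, grey; 3 PGC-1α overexpression, blue) with mean ± SD for 6 genes, under the 75th percentile scaling (top) and quantile normalization (bottom), each panel spanning the same number of log2 units. Ndufab1, Ndufa4l2 and Ndufaf1 keep their difference in the top and the bottom panels, that of Ndufaf7 grows from -0.23 to -0.54, that of Ndufa2 shrinks from 0.77 to 0.22, and Ndufv2 turns from 0.20 to -0.28.

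Some genes had more than one probe. Of the 10 members with 2 probes, Ndufa7 had probes on opposite sides: the brighter one, with a value on 2 overexpression arrays, was at 0.56 (SE 0.18, adjusted p 0.035) and the dimmer one, whose accession is a non-coding transcript, at -1.25 (SE 0.22, adjusted p 0.0027), both adjusted over the probes tested. On 3 control arrays but only 1 overexpression array the dimmer probe exceeded background. Under quantile normalization the brighter probe of Ndufa7 was at 0.11 (adjusted p 0.64) and the dimmer one at -1.50 (adjusted p 0.0021). The probes of Ndufb8 were at 0.44 and -0.11 and those of Ndufa3 at 0.46 and 0.30, and the second of each did not pass. Both probes of Ndufa10 passed as higher under the 75th percentile, and neither under quantile normalization. For Ndufv1 the dimmer probe passed under the 75th percentile, at 0.42, where the brighter one did not. Under quantile normalization the dimmer one was at 0.05 and did not pass. RefSeq also lists pseudogenes named for Ndufa11, Ndufa12, Ndufab1, Ndufs5 and Ndufs6 and the coding relatives Ndufb4b and Ndufb4c of Ndufb4, and whether member probes match these was not tested.

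Genes that act beside the members were read from lists. Of 9 assembly factors with other names that were tested, 3 passed as higher and 1 as lower under the 75th percentile, and 1 and 1 under quantile normalization. Of all genes tested, 36.9% passed as higher and 19.6% as lower under the 75th percentile, and 21.7% and 20.9% under quantile normalization. Dmac1, needed for the distal membrane arm, was at 0.72 (adjusted p 0.0043) and 0.57 (adjusted p 0.015), higher under both. Tmem186, a component of the same membrane-bound complex as Ndufaf1, was at -0.92 and -1.01, lower under both (adjusted p 0.00070 and 0.00065). Timmdc1, another member of that complex, was at 0.76 under the 75th percentile, where it passed, and at 0.11 under quantile normalization, where it did not. Ecsit and Acad9, which also belong to it, passed under neither.

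Complexes II to V, the rest of the chain and the ATP synthase, gave a like picture. Of 31 tested subunits, 29 passed as higher under the 75th percentile and 0 as lower, with a median of 0.60. All 31 lay in the brightest 10% of tested genes, where 71.2% of genes passed as higher, with a median of 0.52. Of all genes, 36.9% passed as higher. Under quantile normalization 1 of 31 passed as higher, Cox7c of complex IV, with a median of 0.04. The complex I subunits had a lower median than the 31 under the 75th percentile, 0.48, and 0.49 for the 28 in the brightest 10%. The difference between the lists was not tested. The subunits of complex I encoded in mitochondrial DNA were not analysed here.

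Stretches upstream of the gene start are shown for the pair of called genes with a window, Ndufab1 and Ndufaf1, and for the 3 members whose window held AAGGTCA, the core bound by estrogen-related receptors, through which PGC-1α is known to act. They come from the RefSeq promoter table of GRCm38.p6, which held 42 windows of 300 bases (250 before the start) for 40 of the 46 members. Each is written in the direction of the gene, and capitals mark a motif, on either strand.
Ndufab1, chr7:122101849-122101948, minus strand, 100 to 1 bases before the start: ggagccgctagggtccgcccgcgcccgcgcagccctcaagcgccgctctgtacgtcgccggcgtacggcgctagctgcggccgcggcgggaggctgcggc
Ndufaf1, chr2:119662835-119662934, minus strand, 100 to 1 bases before the start, with CCGGAAG: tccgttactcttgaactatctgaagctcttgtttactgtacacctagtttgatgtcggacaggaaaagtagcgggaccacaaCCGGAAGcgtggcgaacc
Ndufb2, chr6:39592364-39592463, plus strand, 201 to 102 bases before the start, with AAGGTCA: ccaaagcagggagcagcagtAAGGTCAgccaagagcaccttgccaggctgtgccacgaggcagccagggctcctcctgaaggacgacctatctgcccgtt
Ndufb4, chr16:37654369-37654468, minus strand, 100 to 1 bases before the start, with AAGGTCA: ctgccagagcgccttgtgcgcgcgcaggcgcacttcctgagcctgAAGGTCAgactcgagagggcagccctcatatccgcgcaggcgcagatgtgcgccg
Ndufs5, chr4:123718335-123718434, minus strand, 248 to 149 bases before the start, with AAGGTCA on the opposite strand: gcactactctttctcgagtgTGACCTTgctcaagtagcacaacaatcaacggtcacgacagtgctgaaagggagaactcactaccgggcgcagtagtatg

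Each motif was searched on both strands. AAGGTCA was in 3 of the 42 member windows (7.14%) and in 4.72% of all 32851 windows. GCATGCG, the core of the nuclear respiratory factor 1 site, was in 5 (11.9%, against 3.58%): those of Ndufa6, Ndufa8, Ndufa11, Ndufaf4 and Ndufaf5. Its first letters are their own reverse complement, so a match on one strand often overlaps one on the other. CCGGAAG, bound by ETS factors such as GABP, was in 6 (14.3%, against 8.86%), and in Ndufaf1 it began 18 bases before the start. AAGATGG, bound by YY1, was in 8 (19.0%, against 6.34%), on the gene's own strand and between 11 and 39 bases past the start in each. The 3 members with AAGGTCA had log2 fold changes of 0.36 for Ndufb2, 0.40 for Ndufb4 and 0.49 for Ndufs5 under the 75th percentile and 0.02, 0.01 and 0.10 under quantile normalization. None of the 3 passed under either scaling, and each lacked a value on 1 array. A match says only that these letters are in the window.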

How the data were processed

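Agilent Feature Extraction, the authors' scanner software, had measured the green intensity of 62976 spots per array, and the intensity columns deposited are not normalized across arrays. A second deposited table holds log2 values that the authors normalized in GeneSpring, used as an alternative. Here log2 was taken, the 75th percentile over the 59305 spots other than controls was subtracted, and outlier spots (149 to 1590 per array) were left out. The number of arrays limits the precision. Probes were named through RefSeq accessions (33767 of 56605 matched). Probes were tested if 2 or more arrays per group had a value and all 3 arrays of a group were well above background, and the brightest probe stood for its gene. Groups were compared with limma 3.58.1 (lmFit, eBayes) in R 4.3.3, by two-sided tests at 0.05 after adjustment by Benjamini-Hochberg across 17062 genes, and the scripts were tested on simulated data. Core subunits, assembly factors, and the 5 highest and 5 lowest others were to be named, with Ndufa4, Ndufa4l2 and genes with opposing probes. Other genes were chosen after their values were seen. Values of 1 gene, included in the counts, are not reported here. Members and lists were chosen with earlier results of these data known. Alternatives were quantile normalization, the array median, normexp (offset 50), filters, probe averaging, slide and replicate blocks, variance models, array weights, the authors' values, slide 1 alone and each array left out. Centring on the median of tested genes was added after seeing the data.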

Additional observations from a re-analysis of the deposited data

How the results depend on the processing

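Scaling between arrays moved the results most. Its cause was not tested. Subunits passing as higher went from 27 to 2 under quantile normalization, alone or after normexp, to 2 with the authors' values, to 11 with the array median, to 17 within slide 1 and to 9 at an adjusted p of 0.01, and ranged from 12 to 22 with one array left out. More subunits passed as higher with each array's median over tested genes as zero (35), with a robust variance trend (32) and with array weights (31). Those passing as lower were 0, and 1 with the authors' values and within slide 1 (0 to 1 with one array left out). The subunits' median above that of all genes, 0.25, was -0.0010 under quantile normalization, -0.0083 with normexp before it, 0.15 with normexp and the 75th percentile, 0.12 with no filter and -0.012 with the authors' values (0.18 to 0.28 with one array left out). The assembly factors passing as higher went from 2 to 0 under both quantile settings, with the authors' values and at 0.01, and to 1 with the array median, with no filter and within slide 1 (1 to 2 with one array left out). With array weights 3 did. Those passing as lower went from 1 to 2 under both quantile settings, the authors' values and array weights, and to 0 with no filter, at 0.01 and with the median of tested genes as zero (0 to 1 with one array left out). Their median relative to all genes, -0.10, became 0.022 and 0.067 under the quantile settings, 0.013 with the authors' values and -0.22 with no filter.

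Reversed signs, given for quantile normalization, normexp with quantile normalization and the authors' values in turn, were -0.020, -0.044 and -0.039 for Ndufa5, -0.22, -0.27 and -0.30 for Ndufa8, -0.051, -0.066 and -0.071 for Ndufa9, -0.13, -0.11 and -0.15 for Ndufs6, -0.13, -0.12 and -0.16 for Ndufs7, -0.23, -0.25 and -0.25 for Ndufv1 and -0.28, -0.27 and -0.30 for Ndufv2. With the authors' values Ndufs3 was at -0.0094 and Ndufs8 at -0.0020, and Ndufa8 was at -0.045 with the array median and -0.044 with normexp. Ndufa7 was at -1.91 with its probes averaged, and at -1.19 within slide 1 and -1.02 and -1.29 without overexpression replicate 2 or 3, where only its dimmer probe could be tested. With one array left out it ranged from -1.29 to 0.62.

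With the replicate number as a block 28 subunits passed as higher and 0 as lower, and 2 assembly factors as higher and 1 as lower, and with slide as a block 29 subunits did. Same-numbered arrays correlated at -0.16, 0.07 and 0.60 in their deviations from the group means, so the numbers were not taken to pair the samples. Of the values of named genes under other settings, 404 kept their direction and side of the threshold, 66 no longer passed, 16 newly passed and 29 turned sign.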
